A study of Mus musculus with 8 samples.

Results

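The microarray used here carried probes for stretches of the mouse genome that the files name by chromosome coordinates and a strand letter, F or R, and not by a gene. These regions on the autosomes other than chromosome 5, where Pus1 lies, were described here, without 1 region on chromosome 16. They were chosen by detection: of 14636 such probes, 2652 were kept because every sample of the mutants, or every sample of the wild types, or both, read well above background. These were among 21152 kept probes of 55681 in all. The kept probes covered 1320 regions, and averaging the kept probes of a region and strand gave 1554 region-strands, among 19925 rows tested. Since detection chose them, and detection differed between samples, counts of direction over the kept region-strands are given as descriptions.

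Homozygous Pus1 mutant mice and wild type Pus1 mice were compared, 4 of each, aged 14 to 16 weeks, all of strain C57BL/6J after 5 generations of backcrossing. Pus1 encodes a pseudouridine synthase that acts on cytosolic and mitochondrial tRNAs. What the mutation does to the gene is not stated in the labels. RNA came from the red, slow portion of the gastrocnemius, a calf muscle, and each of 4 two-colour arrays held 1 mutant and 1 wild type sample of the same individual number and sex. Arrays 1 and 2 held males and arrays 3 and 4 females, and the mutant carried Cy5 on arrays 1 and 3 and Cy3 on arrays 2 and 4.

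Much of the mammalian genome outside annotated genes is transcribed at low level. Long intergenic noncoding RNAs are one such class: they are often spliced and polyadenylated, tend to be expressed at lower levels and in fewer tissues than mRNAs, and some act on chromatin or on neighbouring genes. Probes laid along a region report strand by strand whether RNA from it is present, but a signal from one probe does not by itself define a transcript. The files give no gene or function for the regions below, so they are named by position in build mm9, the build in the file headers, and whether a region overlaps a gene was not tested. In bulk muscle, fewer cells that make a transcript and less of it per cell cannot be told apart.

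The Pus1 probe was well above background in 0 of 4 mutant and 4 of 4 wild type samples and was at least 3.57-fold lower in the mutants. In this table, where the whole array was tested, it did not pass the threshold (log2 change -1.90, SE 0.10, limma adjusted p = 0.112). Between 39.8% and 42.5% of all probes were well above background in the mutant samples and between 39.7% and 47.3% in the wild type samples. All 10 skeletal muscle markers were measured, with summed levels of 20.73 to 21.25 (log2) in mutants and 20.46 to 21.27 in wild types. Summed red blood cell markers, with 4 of 6 measured, ran from 14.62 to 18.14 in mutants and from 14.67 to 16.34 in wild types. Of the other 5 cell type lists (adipocyte, macrophage, endothelial, nerve and Schwann cell, fibroblast), no measured gene passed the genotype test. The dimmer of the 2 probes of Csf1r, the macrophage growth factor receptor, was called by the sex test described below (-0.72, limma adjusted p = 0.0245), with 8.14, 7.85, 8.36 and 7.86 in mutants and 8.41, 8.81, 7.83 and 8.18 in wild types, and its brighter probe was not (-0.54, limma adjusted p = 0.107).

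Most probes of these regions gave no signal well above background in this muscle. Of the 14636 probes, 9253 (63.2%) were above background in 0 of 8 samples, and 18.1% were kept, against 52.5% of probes with a gene name. The 2298 probes above background in both genotypes had a median log2 level of 8.29, with a range of 7.10 to 17.66. Another 118 probes were kept through the mutants alone and 236 through the wild types alone. At the edge of the rule, the 354 probes kept through 1 genotype alone had levels of 6.97 to 8.40 (median 7.28), and the 492 probes above background in 3 of 4 samples of a genotype, which were not kept, had levels of 6.77 to 8.85 (median 7.12). The edge of detection thus ran through probes of similar brightness. No kept probe was saturated.

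The kept regions were spread over all the chromosomes studied. The share of probes kept ran from 12.0% on chromosome 9 to 25.5% on chromosome 19. When the region-strands were ordered by region length and cut into 4 equal groups, those of the longest group had a kept probe in 43.1% of cases, against 26.9% in the shortest group (62 to 1743 bp). Those long region-strands also carried more probes, 4.19 against 2.57 on average. The share of probes kept was 14.9% in the shortest group and 19.2%, 18.8% and 18.6% in the others, by rising length. Both strands were equally represented, with 774 region-strands on F and 779 on R, and 1 without a strand letter. In 234 regions both strands had kept probes. Of the 1320 regions, 538 overlapped another one, so that there were 1016 separate groups of regions.

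Most region-strands rested on few probes. Of 1554, 963 had 1 kept probe, 296 had 2 and 295 had 3 or more. Where 2 or more were kept, all probes had the same sign of log2 change in 321 of 591 region-strands (54.3%). Across these 591, the log2 changes of the 2 brightest probes correlated at r = 0.351, and their dye terms at 0.396. The pairs share arrays and samples, so these are descriptions. Of the 34 such region-strands whose change was 0.3 or more in size, 29 had probes of 1 sign. The 34 were picked on the mean of the same probes, which favours 1 sign, so this is a description too. Between the strands of a region the sign was shared in 137 of 234 cases (58.5%), with r = 0.254.

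The samples differed in how many regions they showed. The 14636 probes were above background in 22.2%, 20.4%, 23.4% and 19.7% in mutants 1 to 4, against 26.8%, 31%, 19.6% and 23.4% in wild types 1 to 4. Wild types 1 and 2, both male, were the highest. The difference was also seen pair by pair: 3 of the probes were above background in both male mutants and in no other sample, against 422 in the male wild types alone, and 4 in the female mutants alone, against 1 in the female wild types alone. Probes with a gene name showed it to a smaller degree, at 4 probes in the male mutants alone against 341 in the male wild types alone. There were 10 in the female mutants alone, against 10 in the female wild types alone. The share in the male wild types alone was 2.88% of the region probes and 1.23% of the probes with a gene name. Results below are therefore also given for each sex and for the female pairs alone.

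No region-strand passed the genotype test. Pus1 did not pass either (limma adjusted p = 0.112), so failing the test does not show that a region-strand was unchanged. At a limma adjusted p under 0.05, 0 of 1554 passed, and the same held for all rows (percent called 0 of 19925). At an unadjusted p under 0.05 there were 99 region-strands (6.37%), 34 higher and 65 lower in the mutants. Over all rows the share was 5.4%, with 2.84% higher and 2.55% lower. The count of 99 varied with the arrays and the fit. It was 28, 30, 145 and 229 without replicates 1, 2, 3 and 4. In the female pairs alone it was 9, and with no replicate block 52. Leaving out a replicate also leaves fewer residual degrees of freedom, so these counts do not measure the weight of 1 array. The matching counts over all rows were not taken, so these moves cannot be read as particular to the region-strands. The ratio was below 0 on 4 of 4 arrays in 102 region-strands (6.56%, against 4.28% of all rows) and above 0 on 4 of 4 in 72 (4.63%, against 5.74%). Levels of the 2 genotypes did not overlap in 27 region-strands (1.74%, against 1.26% of all rows). The female pairs alone also called 0 of 1554. The male pairs alone called 37, all lower in mutants, which is 2.38%, against 2.38% of all rows in that direction (2.39% in either).

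The median log2 change over the region-strands was -0.035, against 0.0025 over all rows. Its median on arrays 1 to 4 was 0.0068, -0.13, 0.063 and -0.082, so the sign was not the same on all arrays. The SD of those array medians was 0.088, larger than the median itself. The median effect was -0.050 in males and -0.0078 in females. Region-strands of 2 or more kept probes had a median of -0.010. The median absolute change was 0.086, against 0.075 over all rows.

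**Figure D1:**
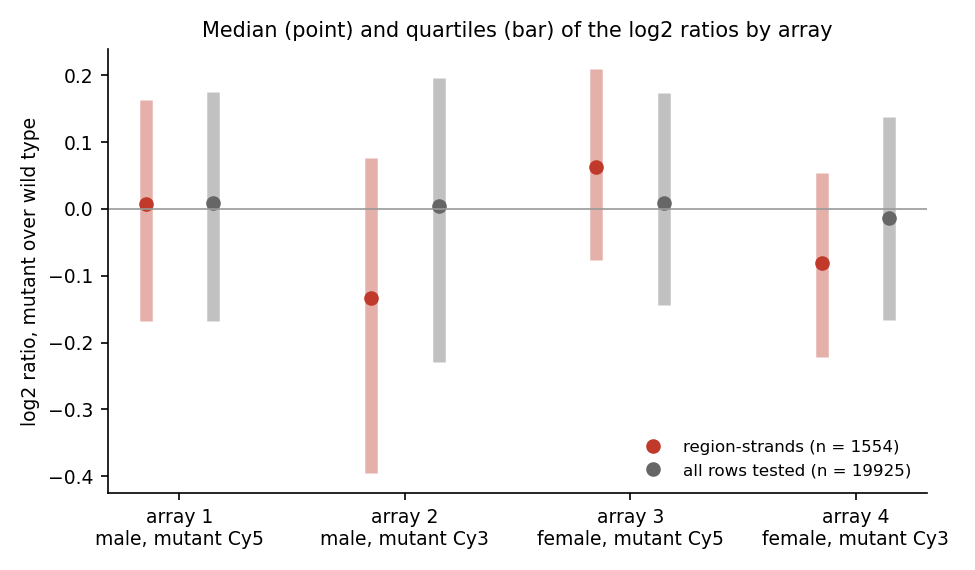
Log2 ratio of mutant over wild type on each array (vertical axis) for the 1554 region-strands, with all 19925 rows tested beside them. Points are medians and bars run between the quartiles. The region-strands' medians are 0.0068, -0.13, 0.063 and -0.082 on arrays 1 to 4.

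The region-strand with the smallest p lay on chromosome 6, on strand F of chr6:83541250-83560425, and had higher values in the mutants. Its log2 levels were 9.40, 9.30, 9.61 and 9.52 in mutants 1 to 4 and 8.69, 8.34, 8.84 and 8.83 in wild types 1 to 4. Every mutant lay above every wild type, and the spread within a genotype (SD 0.14 in mutants and 0.24 in wild types) was small beside the gap between them. The log2 change was 0.78 (SE 0.079, n = 4 arrays), or 1.72-fold, with ratios of 0.70, 0.96, 0.76 and 0.69 on arrays 1 to 4. It was 0.83 in males and 0.73 in females. The unadjusted p was 0.000228 and the limma adjusted p 0.50, so it did not pass over the whole array.

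All 5 probes of this region-strand were kept, each above background in 8 of 8 samples. Their log2 changes were 1.01, 1.00, 0.80, 0.70 and 0.39. The direction was thus shared by separate probes along the region, while the size differed between them. The region-strand was picked on the mean of these same probes, so their shared direction is a description. With 17 other settings the change of the region-strand stayed between 0.71 and 1.01, and its adjusted p between 0.0629 and 1.00.

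**Figure D2:**
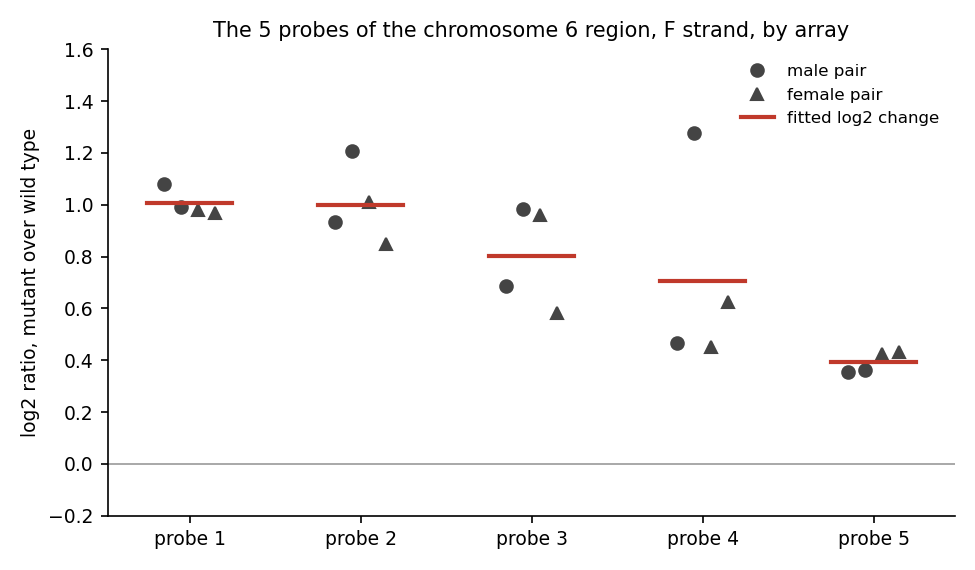
Log2 ratio of mutant over wild type (vertical axis) of the 5 probes on strand F of chr6:83541250-83560425, with 1 point for each array (circles are male pairs, triangles female pairs) and a bar for the fitted change. All points lie above 0, and the fitted changes run from 0.39 to 1.01.

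Another 7 region-strands with higher values on 4 of 4 arrays had the next smallest p, from 0.00396 to 0.0154 (limma adjusted p = 0.724 for each). In 4 of the 7, each on 1 kept probe, the probe was kept through the mutants alone, the genotype where it read higher, so their changes are a description. Strand R of chr12:74135916-74142780 had levels of 8.20, 8.25, 8.47 and 8.64 in mutants and 7.97, 7.92, 8.10 and 8.22 in wild types. Each mutant lay above the wild type of its own array, and 5 of 5 probes were higher, but the genotypes overlapped. The 7 were picked for this order on the arrays and on the mean of their kept probes. Shared signs of arrays or probes are therefore descriptions, here and in the region-strands that follow. Its log2 change was 0.34 (SE 0.069). Strand F of the same region, with 8 kept probes, had a change of 0.08 (SE 0.14), with ratios above 0 on both male arrays (0.33 and 0.36) and below 0 on both female arrays (-0.34 and -0.05).

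Strand F of chr16:23989160-23992539 had levels of 7.94, 7.78, 7.74 and 7.28 in mutants and 7.18, 7.28, 7.32 and 7.02 in wild types. Mutants 1 to 3 lay above all wild types and mutant 4 among them. Its change was 0.48 (SE 0.093) on 1 kept probe, which was above background in 4 of 4 mutants and 3 of 4 wild types. The 2 other probes of the strand were above background in 3 of 4 mutants, against 0 and 1 wild types, and so were not kept, with changes of 0.43 and 0.40. This region overlaps the chromosome 16 region that was left out.

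Strand R of chr17:32044823-32045974, with 3 of 3 probes higher, had levels of 8.78, 8.70, 9.12 and 9.35 in mutants and 8.18, 8.28, 9.03 and 8.83 in wild types. The change was 0.41 (SE 0.11), and the female pair of array 3 differed least, at 0.09. Strand R of chr18:61809278-61825191, also on 3 probes, had a change of 0.29 (SE 0.070), with ratios of 0.51, 0.04, 0.43 and 0.19. The other 3 rested on 1 kept probe each, above background in 4 of 4 mutants but not in all wild types. The change was 0.30 on strand R of chr7:91558475-91733625 (3 of 4 wild types above background), 0.30 on strand F of chr11:79531768-79532127 (2 of 4) and 0.27 on strand R of chr8:119732348-119749198 (1 of 4). With all probes of these strands averaged, kept or not, the changes were -0.025, 0.12 and 0.014. On strand F of that chromosome 8 region, where 8 probes were kept, the change was 0.01 (SE 0.079).

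Lower values in mutants on 4 of 4 arrays, with the smallest p, were mostly on single probes. Strand R of chr2:152172745-152184745 was the one with several, and 3 of 3 were lower (-0.50, -0.30 and -0.31). It was picked on the mean of these probes, so their shared sign is a description. Its levels were 9.41, 9.32, 9.57 and 9.44 in mutants and 9.84, 9.73, 9.76 and 9.89 in wild types. The genotypes did not overlap, with a change of -0.37 (SE 0.074, unadjusted p = 0.00474, limma adjusted p = 0.724).

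On 1 kept probe each, strand R of chr19:4209657-4210475 had 8.41, 8.14, 8.47 and 8.39 in mutants and 8.71, 8.63, 8.64 and 8.89 in wild types, again without overlap (change -0.37, SE 0.068). Strand R of chr8:122728333-122752130 had 7.62, 7.47, 7.15 and 7.50 in mutants and 8.04, 7.72, 7.62 and 7.75 in wild types, where the highest mutant lay at the level of the lowest wild type (change -0.35, SE 0.065). Strand F of chr12:110842154-110883594 had a change of -0.33 (SE 0.070), with ratios from -0.60 to -0.14, and mutant 3 lay above 3 of the wild types. All 3 had unadjusted p values of 0.00329 to 0.00565.

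Strand R of chr15:79764481-79809909 had the widest difference of the 8, at -0.70 (SE 0.17), with levels of 9.63, 10.15, 9.52 and 8.89 in mutants and 10.05, 10.56, 10.12 and 10.26 in wild types. The ratio was -1.37 on array 4, against -0.42, -0.41 and -0.60 on arrays 1 to 3, and the change was -0.46 without replicate 4. The other 6 probes of that strand were not kept and had changes of -0.23 to 0.17, and strand F, on 3 kept probes, had -0.17 (SE 0.095). Strand F of chr1:88339354-88345004 (-0.29), strand F of chr4:35106125-35127700 (-0.33) and strand R of chr2:128217275-128217972 (-0.34) completed the 8. The probe of the last was kept through the wild types alone, where it read higher (2 of 4 mutants above background), so its change is a description. With all probes of the strand averaged, kept or not, several single-probe changes shrank: to -0.11 for chromosome 15, -0.073 for chromosome 19, -0.045 for strand F of chr12:110842154-110883594, -0.18 for chr1:88339354-88345004, -0.016 for chr4:35106125-35127700 and -0.098 for chr2:128217275-128217972. The adjusted p was 0.724 for each of the 8 lower region-strands.

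**Figure D3:**
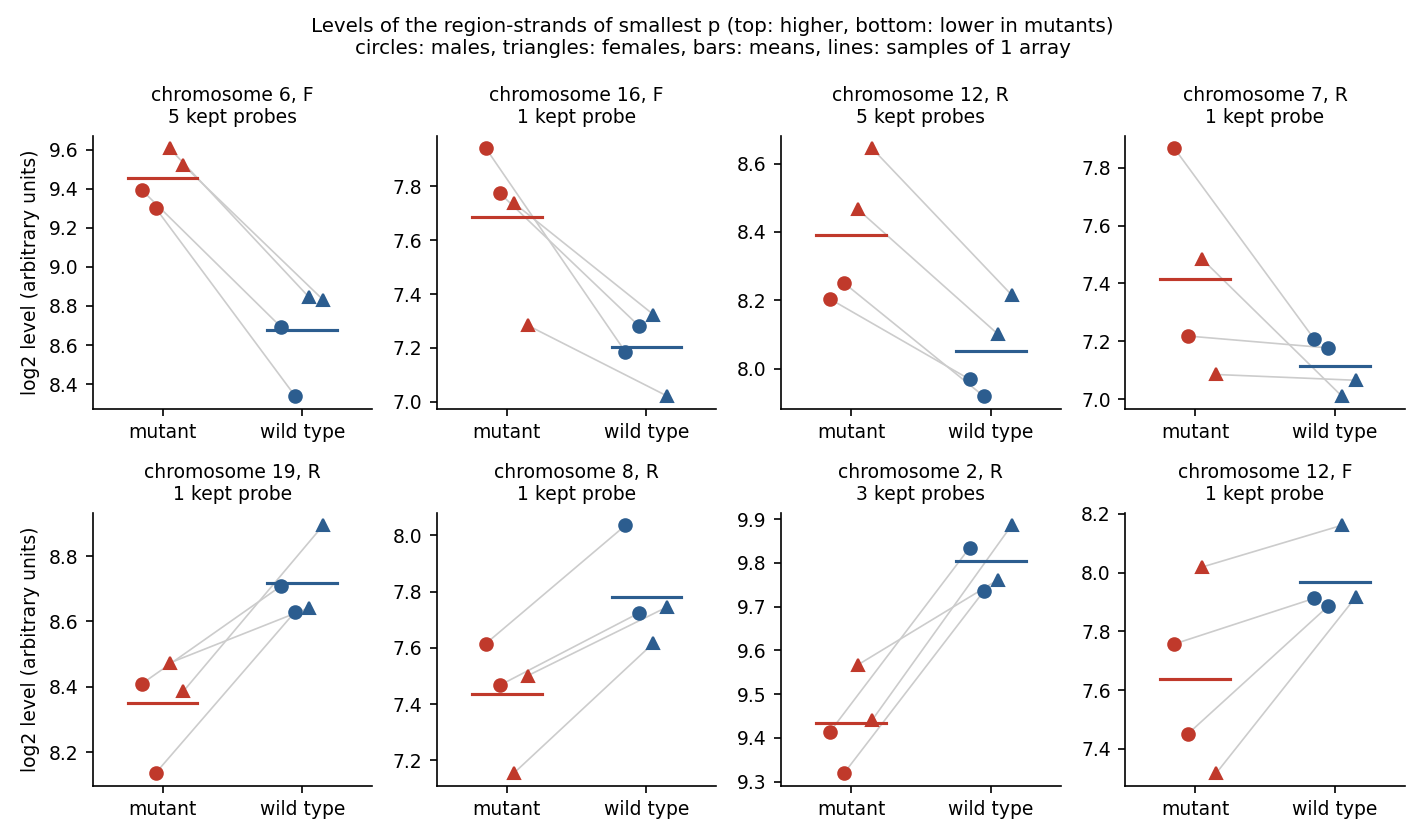
Log2 levels (vertical axis, a scale of its own for each panel) of the 4 region-strands of smallest p with higher values in mutants (top row) and the 4 with lower values (bottom row), each sample as a point and each array's pair joined (the chromosome 16 and chromosome 7 probes were kept through the mutants alone). On strand F of chr6:83541250-83560425 (top left) and strand R of chr2:152172745-152184745 (bottom row, chromosome 2) every mutant lies on 1 side of every wild type.

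Detection was complete in one genotype and absent in the other for 1 region-strand. Strand R of chr1:134857123-134869291 was above background in 0 of 4 mutants and 4 of 4 wild types, with levels of 7.11, 6.97, 7.02 and 7.08 in mutants and 7.32, 7.30, 7.29 and 7.04 in wild types. Wild type 4 lay among the mutants. Since the mutants have only a bound, the difference was at least 1.14-fold (limma adjusted p = 0.724), and the rule chose the probe through the wild types.

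The 5 region-strands with the most kept probes had small differences between genotypes, none of which passed the test. Strand F of chr16:43623581-43642715, with 10 of 10 probes kept, had levels of 10.64, 10.65, 10.62 and 10.43 in mutants and 10.44, 10.45, 10.46 and 10.42 in wild types, a change of 0.14 (SE 0.071). Strand F of chr17:26911397-26917047, also with 10 probes, had a change of 0.09 (SE 0.071). Strand F of chr19:5771425-5848475, with 10 probes, had levels of 8.47, 8.63, 8.59 and 8.40 in mutants and 8.40, 8.75, 8.32 and 8.60 in wild types, a change of 0.0025 (SE 0.073). Samples of both genotypes were interleaved there. Strand F of chr11:95627874-95640824 and strand F of chr4:129497990-129515290, with 9 kept probes each, had changes of 0.05 (SE 0.078) and -0.07 (SE 0.11).

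On some single probes the fitted dye term was larger than the fitted genotype change, though no dye term passed the test in the main fit. The dye term, which is positive where a sample reads brighter in Cy5, had a median of 0.081 over the region-strands, against 0.018 over all rows, and passed the test in 0 of 1554 (percent called 0). The 5 furthest from 0 were picked by the size of this term, so their order of arrays is a description. They rested on 1 kept probe each and lay between 0.82 and 1.19. The furthest was strand R of chr9:41137539-41353289, with ratios of 0.50, -1.59, 1.29 and -1.39, which are above 0 on both arrays with the mutant in Cy5 and below 0 on both others. Strand F of chr6:134838675-134847075 (1.15), strand F of chr7:114386535-114443910 (0.98), strand R of chr19:27448093-27462793 (0.95) and strand R of chr10:83181374-83249774 (0.82) followed the same order of arrays. Their log2 changes with genotype were -0.30 to -0.01.

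A group of region-strands had a signal that was high in the male wild types, and so did a group of probes with a gene name. A genotype by sex term, the male change minus the female change, called 124 of 1554 region-strands (7.98%; limma adjusted p under 0.05), 121 with lower male than female changes and 3 with higher. Over all rows 5.94% were called, 5.63% lower and 0.306% higher, and over probes with a gene name 4.22%. Region-strands of 2 or more kept probes were called at 4.23%. The term is fitted on 1 residual degree of freedom with 2 pairs per sex, and its calls depended on the fit. On simulated data with the spreads of the real rows, its false calls ran above the threshold's rate. Those spreads came from the fit without this term and hold differences between the sexes, so the run does not measure the term's own rate. Without a dye term in the fit, 0 region-strands were called. With no dye term and 1 array left out, 55 were called without replicate 1 (599 of 19928 rows) and 0 without replicate 2, 3 or 4. With no replicate block 24 were called, all of them among the 121, against 377 of 19925 rows in all. That is a smaller share than over all rows. Dropping the dye term changes the errors and not the estimates in this balanced design.

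In these 121 the male change had a median of -0.93 and the female change of 0.055. Levels were compared with the mean of the 4 females for each region-strand. The median difference was 0.12 and 0.14 in male mutants 1 and 2, and 0.75 and 1.17 in male wild types 1 and 2. The term also called 561 probes with a gene name lower in males. Their medians were -0.0078 and -0.20 in male mutants 1 and 2, and 0.56 and 1.00 in male wild types 1 and 2. Both male wild types lay above the other 6 samples in 96 of the 121 (79.3%), against 14.4% of all region-strands and 7.63% of all rows, and wild type 2 was the highest of the 8 samples in 102. This describes the calls, since the term used the same samples. Both male mutants lay above all 4 females in 35.5% of the 121, against 9.72% of the other region-strands. In the scanner's own processed signal the medians were 0.33 and 0.44 in male mutants and 1.10 and 1.75 in male wild types. Most of them, 93 of 121, were above background in all 8 samples.

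**Figure D4:**
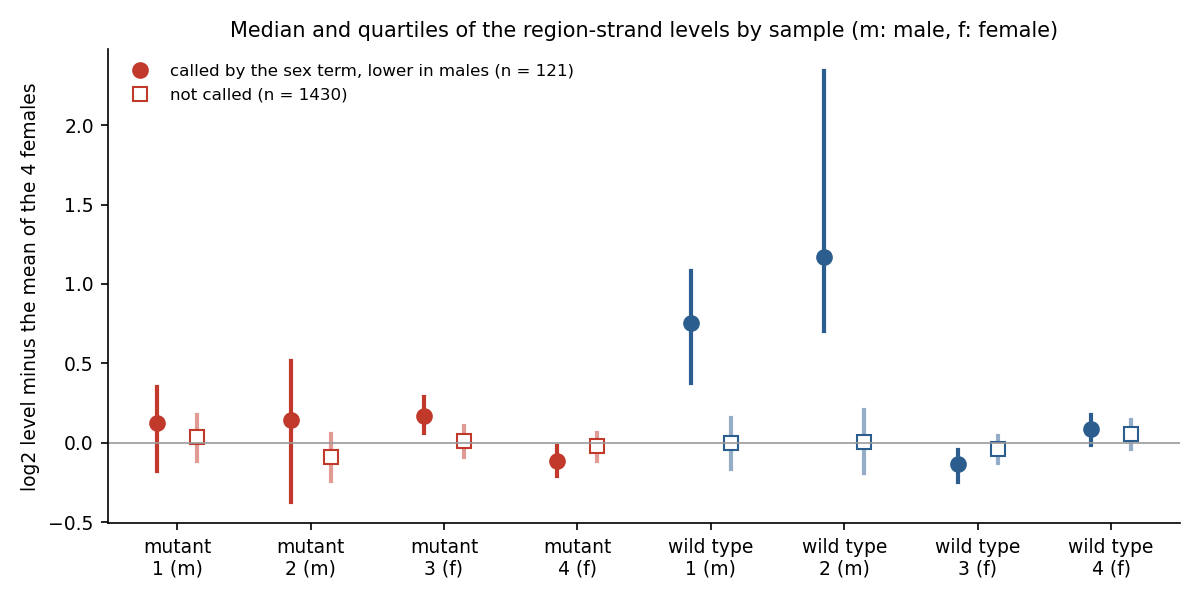
Log2 level of each region-strand minus its mean over the 4 females (vertical axis), as median and quartiles by sample, for the 121 region-strands that the sex term called lower in males (filled circles) and the 1430 not called (open squares). In the 121, wild types 1 and 2 stand at medians of 0.75 and 1.17, and the 1430 have medians of -0.091 to 0.054.

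Most of these calls came from single probes. Of the 121, 98 (81%) had 1 kept probe, against 62% of all region-strands. Their 154 kept probes had a median sex term of -0.99, and 138 lay under -0.5. The same region-strands had another 342 probes on the array that were not kept, whose median sex term was -0.016, and 22 of these (6.43%) lay under -0.5, against 3.91% of the unkept probes of the other region-strands. The kept probes had to be above background, so kept and unkept probes differ in brightness as well. Among 234 regions kept on both strands, the term was called on F alone in 16, on R alone in 18 and on both in 6. By chromosome, the share of region-strands called ran from 3.45% on chromosome 14 to 16.9% on chromosome 10.

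The smallest p of the sex term was on strand F of chr13:73472571-73483846. Its kept probe read 9.24, 9.32, 8.37 and 8.24 in mutants 1 to 4 and 11.70, 12.60, 8.21 and 8.71 in wild types 1 to 4. The male wild types stood more than 2 log2 units above every other sample, and the male mutants somewhat above the females. The change was -2.87 in males and -0.16 in females, a sex term of -2.72 (limma adjusted p = 5.36e-05, and 0.378 without the dye term). The 6 unkept probes of that strand had male changes of -0.25 to 0.20. Strand R, on 1 kept probe, had a male change of -0.05 and a female change of -0.01.

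The next 4 were also highest in the male wild types. Strand F of chr3:36280098-36347798 had 9.72, 9.63, 8.95 and 8.42 in mutants and 11.42, 12.90, 8.39 and 8.88 in wild types (sex term -2.54). Strand F of chr6:142918948-142919051 had 8.96, 8.44, 8.68 and 7.81 in mutants and 10.68, 11.48, 7.91 and 8.28 in wild types (-2.53). Strand F of chr18:5951953-5952386 had 9.47, 9.51, 9.04 and 8.63 in mutants and 11.08, 12.59, 8.46 and 8.95 in wild types (-2.48). In all of them wild type 2 was the highest and wild type 1 next. Strand F of chr1:183951156-183986156 was brighter throughout, at 11.64, 12.21, 10.80 and 9.76 in mutants and 13.19, 14.89, 10.28 and 10.25 in wild types (-2.12). The 5 had limma adjusted p values of 5.36e-05 to 8.16e-05, and each was above 0.3 without the dye term. For the chromosome 3 region strand R was called as well (-0.99, limma adjusted p = 0.00522), through 2 of its 3 kept probes, at -2.00 and -0.99, while the other was at 0.02.

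The 3 region-strands with a higher male change were smaller in size. Strand F of chr13:34027900-34052050 had 9.03, 8.28, 7.64 and 8.29 in mutants and 8.52, 8.07, 8.41 and 8.87 in wild types. All 3 of its probes were kept and had sex terms of 0.88, 1.04 and 1.19. The mutant was higher than its wild type on both male arrays (0.51 and 0.21) and lower on both female arrays (-0.77 and -0.58), a sex term of 1.04 (limma adjusted p = 0.00548, and 0.379 without the dye term). Strand R of chr17:22332475-22362150 (0.74, limma adjusted p = 0.0344) and strand R of chr10:69669025-69686275 (0.62, limma adjusted p = 0.0493) were the others.

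Across the 1554 region-strands the male and female changes did not run together. Pearson's r was -0.029 and Spearman's rho -0.030, against -0.027 and 0.010 over all rows. Among the 1430 not called by the sex term r was 0.11. These are descriptions across region-strands of the same 4 arrays. Of the markers of red blood cells, 3 were also called by the sex term. Alas2, the erythroid enzyme of haem synthesis, had -1.42 (limma adjusted p = 0.000565). The globin genes Hba-a1 and Hbb-b1 had -1.64 and -1.87 (limma adjusted p = 0.00437 and 0.00105). The order of samples in these 3 was another one. Hba-a1 read 14.44, 15.66, 15.95 and 18.04 in mutants 1 to 4 and 15.31, 14.83, 14.54 and 16.21 in wild types 1 to 4, with mutant 4 highest. What set the male wild types apart in the regions and in probes with a gene name was not tested.

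**Figure D5:**
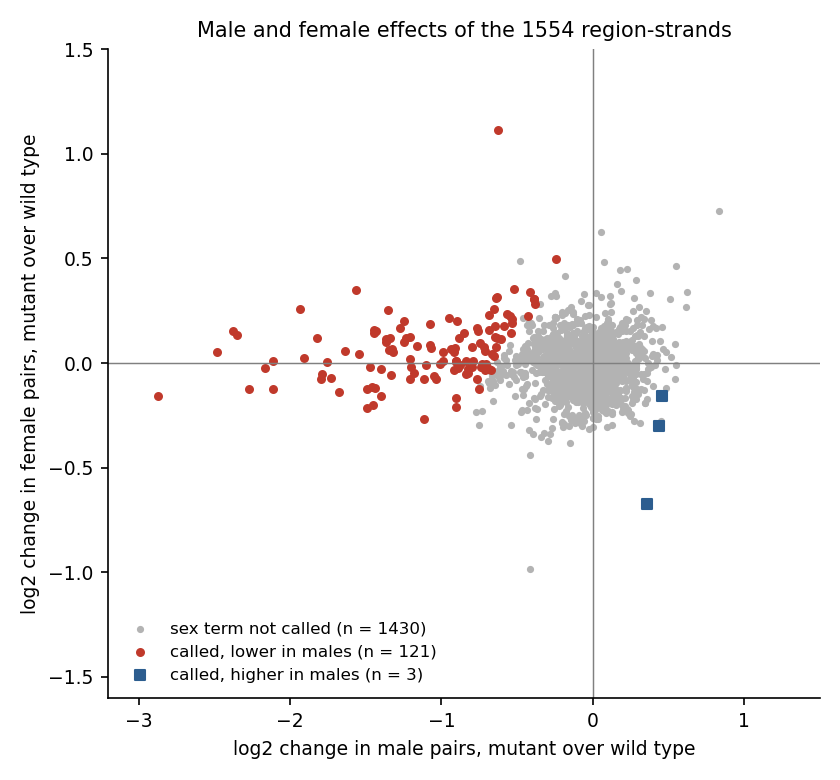
Log2 change of mutant over wild type in the male pairs (horizontal axis) and the female pairs (vertical axis) of each of the 1554 region-strands. The 121 called lower in males by the sex term (red) extend to -2.87 along the male axis, and the 3 called higher (blue squares) lie on the other side.

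Known noncoding RNAs with a gene name were set beside the unnamed regions. Of 40 listed, 23 had a probe and 16 a kept one, and 8 had higher and 8 lower values in mutants. None passed for genotype at a limma adjusted p under 0.05 (percent called 0 over all rows), and 4 of 16 had an unadjusted p under 0.05, against 5.4% of all rows. Malat1, an abundant nuclear RNA, had 10.77, 11.07, 10.35 and 9.17 in mutants and 9.88, 10.61, 9.31 and 9.29 in wild types, a change of 0.57 (SE 0.12) with the opposite sign on array 4. Snhg6, a host gene of small nucleolar RNA, had 13.23, 13.19, 13.29 and 13.47 in mutants and 12.91, 12.87, 13.09 and 13.12 in wild types, without overlap and with a change of 0.30 (SE 0.067, limma adjusted p = 0.724). Mir17hg, host of the miR-17 cluster, was at 0.33 (SE 0.081) and Snhg3, another small nucleolar RNA host, at -0.26 (SE 0.083). Airn, the imprinted antisense RNA of the Igf2r locus, was called by the sex term (-0.87, limma adjusted p = 0.00834), with 9.60, 9.36, 9.49 and 8.97 in mutants and 9.91, 10.46, 9.01 and 9.13 in wild types, where male wild types 1 and 2 were again the highest.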

How the data were processed

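Per the file headers, the deposited scanner files give median spot intensity and median local background intensity in each channel, with flags. The program was Agilent Feature Extraction 10.7.3.1, per the submitters' processing notes, and the ratio it gives is log10 of Cy5 over Cy3, per the file headers. A value table deposited by the authors holds log2 values centred on each probe's median over the samples. Its channel differences correlated with the scanner's ratio at r = 0.985, 0.983, 0.980 and 0.989 across kept probes on arrays 1 to 4, and its column medians were -0.0016, 0.0066, 0.0045 and 0.019 for mutants 1 to 4 and -0.035, -0.062, 0.013 and 0.0036 for wild types 1 to 4. How the table was made is not given in the sources used.

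Intensity was corrected by normexp (offset 50) and loess within arrays in R 4.3.3 with limma 3.58.1, with control and outlier spots at weight 0. Levels are log2 values per channel after Aquantile scaling. A probe was above background in a sample where at least 50% of its spots were. Kept probes of a region and strand were averaged. All 19925 rows were fitted with lmFit and eBayes with a dye term (2 residual degrees of freedom, prior 2.78), and again with a genotype by sex term (1 residual degree of freedom, prior 8.15). Tests were 2-sided, with Benjamini-Hochberg adjustment over all rows. Samples that shared an array and an individual number were pairs, and within pairs 1 to 4 the samples' deviations from their group means had r = 0.371, 0.434, 0.0869 and 0.548 across region-strands. The labels call the samples of a genotype biological replicates. The fits were tested on simulated data. With spreads drawn from the fitted prior, which the model itself assumes, false calls stayed within a limit set looser than the threshold. With the spreads of the real rows they ran above the threshold, in the genotype and the sex test alike. Those spreads came from the fit without the sex term. Neither run shows how often the real calls are false.

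Named region-strands were the 8 of smallest p in each direction among those of 1 direction on 4 of 4 arrays, the 5 of smallest p of the sex term in each direction, those detected in 1 genotype alone, the 5 of largest dye term, the 5 with most probes, the 5 of smallest p with 3 or more probes of 1 sign, and the other strand of these. Members, lists and rules were chosen with earlier results of these data known. Neighbouring genes were not given because the files used here hold no mm9 positions of gene probes. Probe sequences are not printed. The number of arrays limits the precision.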

Additional observations from a re-analysis of the deposited data

Results flagged for a closer look

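With 2 pairs per sex, each sex on arrays of its own, a difference between the sexes cannot be told apart from one between single animals or arrays. The sex term, the male change minus the female change, called 124 region-strands, and 0 with no dye term in the fit. Among those named, it was -2.72 for strand F of chr13:73472571-73483846, -2.53 for strand F of chr6:142918948-142919051, -2.54 for strand F of chr3:36280098-36347798, -2.48 for strand F of chr18:5951953-5952386 and -2.12 for strand F of chr1:183951156-183986156. It was -0.99 for strand R of chr3:36280098-36347798 and -0.77 for strand F of chr7:114386535-114443910, which also had one of the largest dye terms. It was 1.04 for strand F of chr13:34027900-34052050, 0.74 for strand R of chr17:22332475-22362150 and 0.62 for strand R of chr10:69669025-69686275.

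In 5 of 88 groups of 4 samples, 1 sample stood apart from the other 3, its gap divided by the group's range being above Dixon's critical value. Chance marks about 1 in 20 groups. Strand F of chr12:110842154-110883594 read 8.16 in wild type 3, against 7.88 to 7.92 in the other wild types (ratio 0.883). Strand F of chr1:88339354-88345004 read 7.70 in wild type 2, against 7.43 to 7.48 (0.836). Strand F of chr12:81221532-81232030 read 9.25 in wild type 4, against 7.92 to 8.14 (0.83). Strand R of chr1:134857123-134869291 read 7.04 in wild type 4, against 7.29 to 7.32 (0.876). Strand F of chr16:43623581-43642715 read 10.43 in mutant 4, against 10.62 to 10.65 in the other mutants (0.871).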

How the results depend on the processing

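The count of region-strands that passed the genotype test was 0 under all alternatives run, each replicate left out in turn included. The male pairs alone were the exception and called 37 (2.38%, against 2.39% of all rows). At an unadjusted p under 0.05 the count of 99 ranged from 9 in the female pairs alone to 229 without replicate 4. The matching range over all rows was not counted. The median log2 change stayed between -0.050 and -0.0078 except with the authors' value table, where it was 0.012. All rows had a median of 0.057 with that table, so the region-strands lay below it, as in the main fit (-0.035, against 0.0025). The median absolute change was 0.135 with that table and 0.145 in the male pairs alone, against 0.086 in the main fit. Over all rows it was 0.111, 0.12 and 0.075 in the same order. The sex term was called in 124 of 1554 region-strands, against 1183 of 19925 rows in all. It was called in 47 with the scanner's own ratio, against 522 of 19925. The authors' value table gave 66, against 612 of 19930. With no filter it was called in 71 of 4153, against 1551 of 44081, a smaller share than over all rows. No replicate block gave 24, against 377 of 19925, again a smaller share. With no dye term it was called in 0, and in 0 of all rows. With no dye term and 1 replicate left out, an alternative chosen after seeing the data, it was called in 0 to 55. Over all rows that range was 0 to 599. With each probe on its own, 184 of 2651 probes were called, against 1249 of 21146. The other settings gave 100 to 148 region-strands, against 1026 to 1366 rows. With no replicate block the unadjusted genotype count was 52. Strand R of chr7:91558475-91733625 changed sign with no filter (-0.025, main 0.30), where unkept probes enter the mean. Of the 15 others named by p with 1 direction on 4 of 4 arrays, those with unkept probes on their strand moved towards 0 there, down to -0.016 for chr4:35106125-35127700 (main -0.33). Of the regions described without a test, strand F of chr19:5771425-5848475 (-0.14 to 0.09), strand F of chr11:95627874-95640824 (-0.04 to 0.15), strand F of chr4:129497990-129515290 (-0.18 to 0.04), strand F of chr12:74135916-74142780 (-0.19 to 0.34), strand F of chr8:119732348-119749198 (-0.06 to 0.10) and strand R of chr13:73472571-73483846 (-0.07 to 0.05) crossed 0. The cause was not tested. With 4 arrays and the sex term on 1 residual degree of freedom, calls rest largely on the prior, and probes near background are the least certain.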
